A study of Bos taurus with 20 samples.

Results

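The glucocorticoid receptor gene NR3C1 and 6 genes of the glucocorticoid response, FKBP5, TSC22D3, ZBTB16, KLF9, SGK1 and HSD11B1, were examined in the blood of pregnant recipient cows. The members were a list of cattle symbols, matched to the Entrez identifiers of the counts through the NCBI cattle gene table. All 7 of 7 were found among the 37063 genes of the counts, and all 7 passed the filter of at least 10 counts in at least 5 cows, which left 16269 genes in 20 cows.

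The study collected whole blood from 20 recipient cows on day 63, with 1 library per cow, and recorded calf birth weight (BW). All cows belonged to 1 condition, and BW, from 30 to 72.5 kg, was the only variable that the labels give per cow. The recipients also differed in age and parity, which were recorded by the study but not used here per cow. Each recipient carried a female calf from an in vitro produced embryo, made with an oocyte of a beef dam and sex-sorted semen. The methods text calls the recipients lactating dairy cows, whereas its list of data sets gives them as Angus. Blood was drawn from the tail into Tempus tubes, which lyse the cells and stabilize RNA. The embryos were not the cows' own, and no cortisol value, hour of sampling, handling record or blood cell count was given in the sources used here. No library batch was named either, so no value within batches could be given. Each cow is named here by the BW of its calf, since no BW occurred more than once.

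Cortisol, the main glucocorticoid of cattle, enters cells and binds the glucocorticoid receptor, which waits in the cytoplasm in a complex of heat shock chaperones. The bound receptor moves to the nucleus, where it activates one set of genes and restrains another, among them many genes of inflammation. In blood, glucocorticoids are known for releasing neutrophils into the circulation, for lowering circulating lymphocytes and eosinophils, and for quickly inducing genes such as FKBP5 and TSC22D3.

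Total counts per cow were between 24632077 and 39892111. The blood markers fitted the labelled tissue, with all 8 neutrophil, 5 monocyte, 7 T cell, 6 B cell, 6 natural killer cell, 7 erythroid and 6 platelet markers passing the count filter. Of 6 eosinophil markers, 4 were found by symbol and 2 passed, led by IL5RA at 20.2 to 199.8 CPM, while CCR3 was at 0 in every cow. None of 5 trophoblast markers passed, CSH2 was at 0 in every cow, and PAG11 reached 0.332 CPM. The sum of the 8 neutrophil markers was from 2454 to 4873 CPM. In whole blood, fewer cells of a type and less RNA per cell cannot be told apart.

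Levels are given as CPM, the counts scaled to a common library total, after TMM scaling. The median cow is the median over 20 cows, and the biological coefficient of variation (BCV) is edgeR's estimate of the spread between cows beyond counting error, whose median over all genes was 15.99%. NR3C1 and FKBP5 varied little between cows, and HSD11B1 varied most among the members. Levels were compared between cows only, since no transcript lengths were used here.

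NR3C1 (Entrez 281946), which encodes the receptor itself, was at 36.1 CPM in the lowest cow, 40.9 in the median cow and 47.6 in the highest. The lowest was the cow of the 47.4 kg calf, followed closely by that of the 55 kg calf at 36.3, and the highest was the cow of the 41.5 kg calf, followed closely by that of the 49.5 kg calf at 47.4. All 20 cows lay within 20% of the median. Its BCV was 9.26%, and 19.02% of all genes had a lower one.

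FKBP5 (Entrez 535704), the co-chaperone that lowers the affinity of the receptor for its ligand and is itself induced by it, was at 163.5, 196.5 and 228.6 CPM in the lowest, median and highest cow. The cow of the 54 kg calf was lowest, that of the 45 kg calf was highest, and again all 20 cows lay within 20% of the median. The BCV was 9.04%, and 17.3% of all genes had a lower one.

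TSC22D3 (Entrez 100125309), also called GILZ, a leucine zipper protein that restrains inflammatory transcription factors, was at 870.0 CPM in the lowest cow, 1241 in the median cow and 1469.5 in the highest. The low end was the cows of the 45 and 47.4 kg calves, the latter at 953 CPM, and those of the 54 and 30 kg calves the high end, the latter at 1349 CPM. In 18 of 20 cows the level was within 20% of the median, and the BCV was 13.01%.

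ZBTB16 (Entrez 534401), the zinc finger factor PLZF of innate-like lymphocytes and a gene known for its induction by glucocorticoids, was at 5.96, 7.81 and 10.7 CPM in the lowest, median and highest cow. The 2 highest cows, those of the 47.4 and 46 kg calves, stood at 10.7 and 9.96 CPM, and the next at 8.98. The BCV of 15.6% was near the median of all genes.

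KLF9 (Entrez 539139), a transcription factor of the Krüppel-like family and a direct receptor target, was at 23.1 CPM in the lowest cow, 28.6 in the median cow and 40.6 in the highest. The cow of the 53 kg calf stood alone at the high end, with the next at 33.5 CPM. The low end was the cow of the 72.5 kg calf, with that of the 32 kg calf at 23.3 CPM. The BCV was 13.5%.

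SGK1 (Entrez 515854), a kinase that controls ion channels and transporters and responds to glucocorticoids and to cell stress, was at 73.0, 99.6 and 138.5 CPM in the lowest, median and highest cow. The lowest were the cows of the 45 and 46 kg calves, and the highest those of the 54, 55 and 49.5 kg calves. Here 11 of 20 cows lay within 20% of the median, and the BCV was 17.8%.

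HSD11B1 (Entrez 282589), the enzyme that regenerates active cortisol from cortisone inside cells, was barely detected, at 0.236, 0.739 and 1.09 CPM in the lowest, median and highest cow. These levels came from 7 to 41 counts per cow, so counting error alone gave a coefficient of variation of 20.9%, against 42.5% observed. The ordered levels had a gap, with 8 cows between 0.236 and 0.466 CPM and the other 12 between 0.651 and 1.09. The 4 lowest were the cows of the 53, 56, 54 and 50 kg calves, and the highest was that of the 35 kg calf. The rest of the low 8 were the cows of the 38, 32, 47.4 and 72.5 kg calves. Those of the 55 and 49.5 kg calves were among the other 12, at 0.721 and 0.899 CPM.

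**Figure D1:**
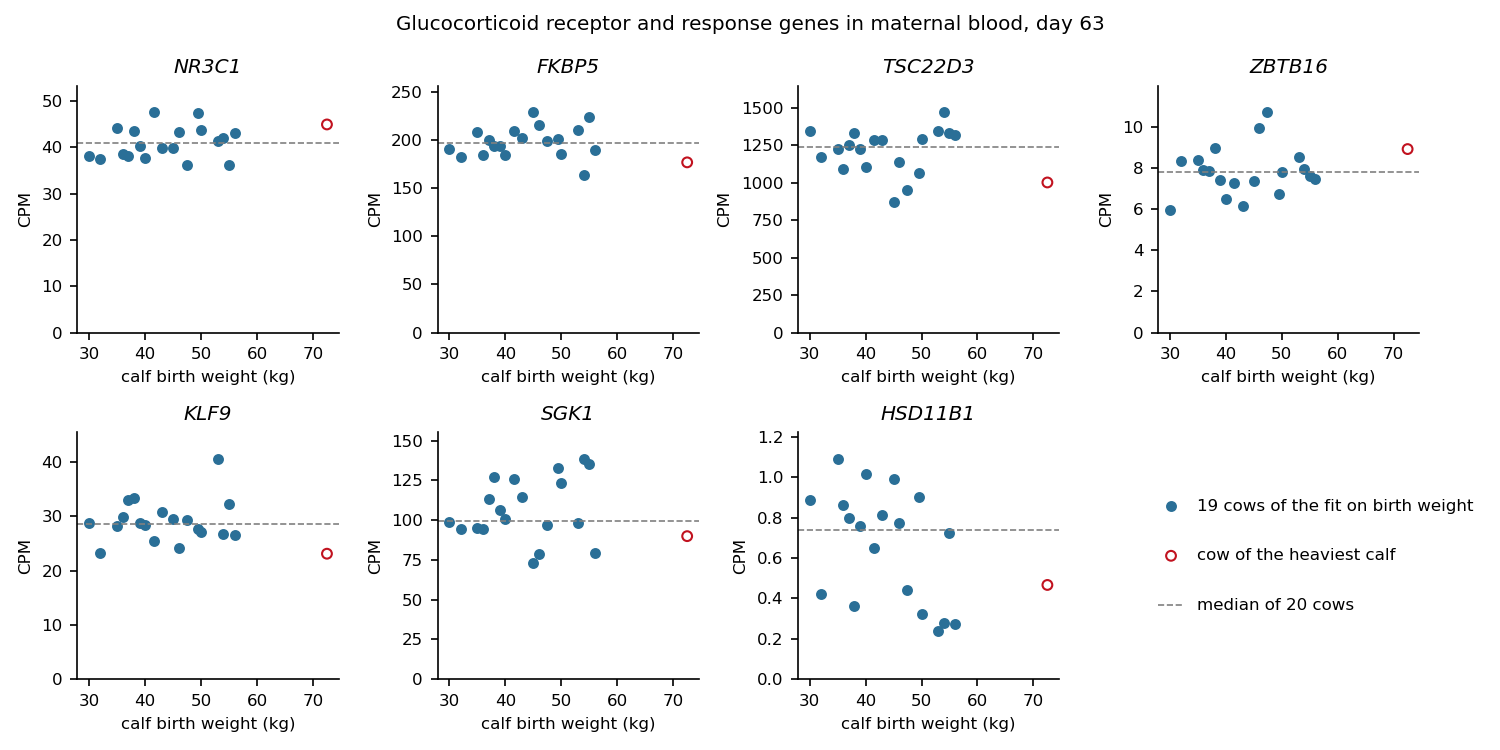
Level of each member in CPM (vertical axes from 0) against calf birth weight in kg, 1 point per cow, with the cow of the 72.5 kg calf as an open circle and the median of 20 cows as a dashed line. NR3C1 and FKBP5 stay within 20% of their medians in all 20 cows, while HSD11B1 spans 0.236 to 1.09 CPM. The 4 lowest cows for HSD11B1 have calf weights of 50 to 56 kg. The cow of the 32 kg calf is also low, at 0.420 CPM, and that of the 55 kg calf is higher, at 0.721 CPM.

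To ask whether the members followed calf BW, counts of 19 cows were fitted on BW, leaving out that of the 72.5 kg calf as the study did, with edgeR's quasi-likelihood test and p-values adjusted over 16206 genes (FDR). None of the 7 members passed the test on BW. With edgeR 0 had an FDR below 0.05, as had 0% of all genes, and 0 had an unadjusted p below 0.05, against 13.9% of all genes. With DESeq2 0 had an FDR below 0.05, against 1.22% of genes with an adjusted p, and 1, HSD11B1, had an unadjusted p below 0.05, against 10.6% of genes. Of the 7 slopes, 6 were above 0 with a median of 0.0026 on the log2 scale per kg, where the median over all genes was -0.00072.

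The slope of NR3C1 was 0.0026 per kg (standard error 0.0037, FDR = 0.805 with edgeR). Over the 26 kg between the lightest and heaviest of the 19 calves this is a fold of 1.05, with a 95% interval from 0.914 to 1.20. For FKBP5 the fold over 26 kg was 1.03 (interval 0.904 to 1.17, FDR = 0.885 with edgeR). Both intervals included 1.

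TSC22D3 had a fold over 26 kg of 1.05 (interval 0.866 to 1.27, FDR = 0.872 with edgeR), ZBTB16 of 1.07 (interval 0.836 to 1.36, FDR = 0.858) and KLF9 of 1.06 (interval 0.868 to 1.302, FDR = 0.833). SGK1 had the greatest positive slope, with a fold of 1.13 whose interval ran from 0.850 to 1.505 (FDR = 0.744 with edgeR). None of these intervals excluded 1.

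The slope of HSD11B1 was -0.042 per kg (standard error 0.020, p = 0.0512, FDR = 0.364 with edgeR), a fold of 0.468 over 26 kg with an interval from 0.218 to 1.004. DESeq2 gave -0.041 (standard error 0.020, p = 0.0395, FDR = 0.307). The slope was below 0 in all 27 alternatives in which the gene was tested, with an unadjusted p below 0.05 in 7 of them. The lowest FDR was 0.219, with the cow of the 32 kg calf left out. These alternatives refit largely the same cows and are not independent of each other.

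**Figure D2:**
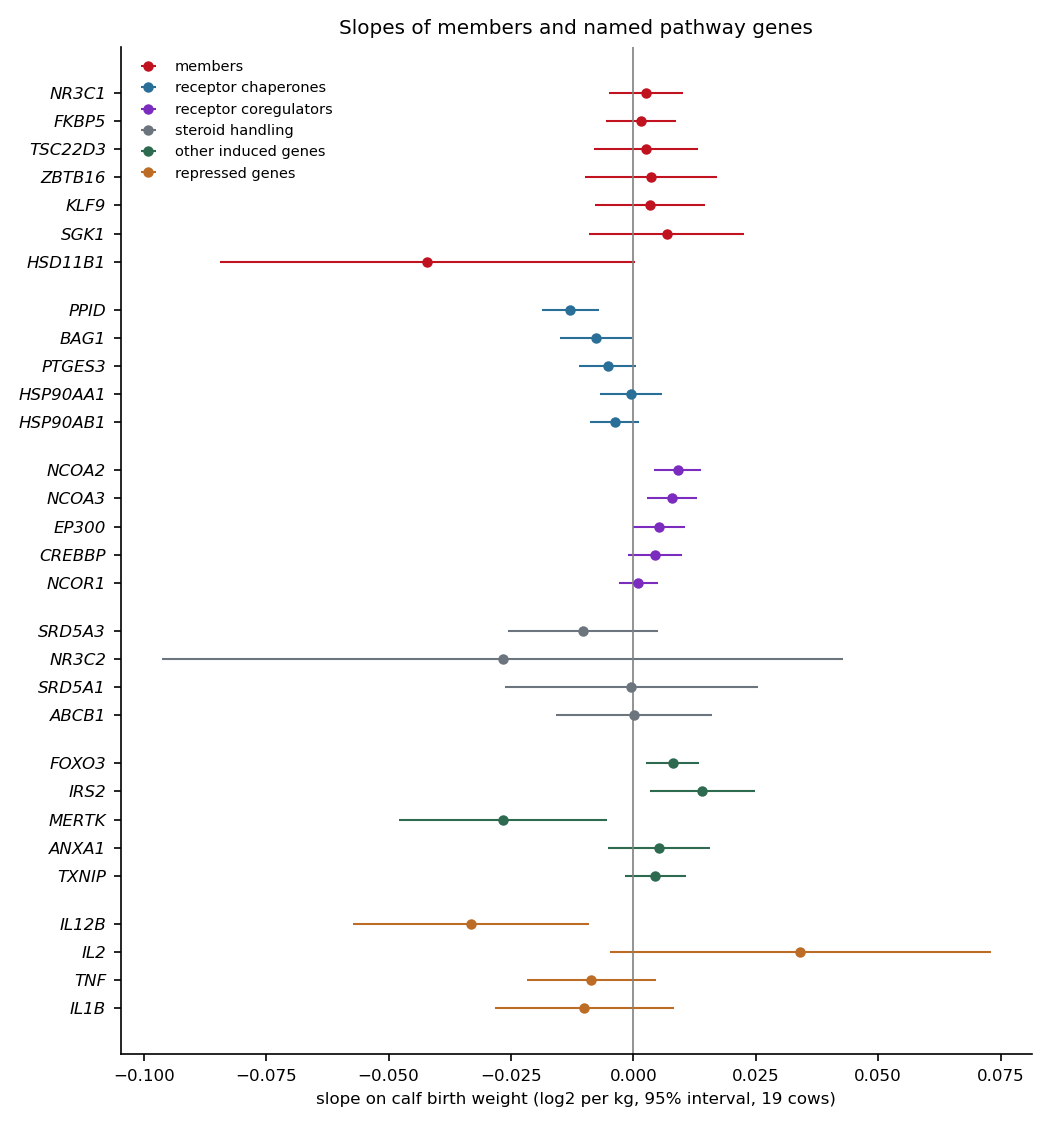
Slope on calf birth weight (log2 per kg, horizontal axis) with its 95% interval in 19 cows, for the 7 members and the pathway genes named by rule, coloured by list. The intervals of all 7 members include 0, and that of HSD11B1 is the widest of the members and ends at 0.00024.

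The other genes of the pathway were grouped as receptor chaperones, receptor coregulators, genes of steroid handling, other genes induced by glucocorticoids and genes repressed by them. In none of these lists did a gene have an FDR below 0.05 with edgeR, where 0% of all genes had. Of the 11 receptor chaperones, 11 were tested, 10 had a slope below 0, and 2 had an unadjusted p below 0.05, both with a negative slope, with a median slope of -0.0033. Over all genes 53.4% of slopes were below 0, and 7.08% of genes had a negative slope at an unadjusted p below 0.05. PPID, a cyclophilin that joins the receptor complex, ranged from 42.0 to 57.6 CPM and had a slope of -0.013 (standard error 0.0028), and the FDR was 0.0976 in edgeR and 0.0121 in DESeq2. BAG1, a co-chaperone of heat shock proteins, had a slope of -0.0076 (FDR = 0.342 with edgeR). The slope of PTGES3, a co-chaperone of HSP90, was -0.0052 (FDR = 0.428 with edgeR). The chaperones with the highest CPM, HSP90AA1 and HSP90AB1, had slopes of -0.00044 and -0.0038.

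Of 10 coregulators 9 were tested (not NRIP1), 7 had a slope above 0, and 3 had an unadjusted p below 0.05, each with a positive slope, with a list median of 0.0030. Over all genes 46.6% of slopes were above 0, and 6.78% of genes had a positive slope at that p. NCOA2, a coactivator that binds the ligand-bound receptor, ranged from 286.2 CPM in the cow of the 37 kg calf to 367.9 in that of the 56 kg calf. Its slope was 0.0090 (standard error 0.0023), and the FDR was 0.126 in edgeR and 0.0216 in DESeq2. The slopes of its relative NCOA3 and of the acetyltransferase EP300 were 0.0079 and 0.0053, with edgeR FDRs of 0.181 and 0.358. CREBBP and the corepressor NCOR1, which had the highest CPM of the list, had slopes of 0.0044 and 0.0010.

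Of 7 genes of steroid handling, 4 were tested and 0 had an unadjusted p below 0.05 with either tool. NR3C2, the mineralocorticoid receptor, which also binds cortisol, was between 0.112 and 4.26 CPM with a slope of -0.027 (standard error 0.033, FDR = 0.778 with edgeR). The steroid reductases SRD5A3 and SRD5A1 had slopes of -0.010 and -0.00041, and the efflux pump ABCB1, at a median of 17.3 CPM, had a slope of 0.00012. HSD11B2, which inactivates cortisol, and SERPINA6, the cortisol-binding globulin of plasma, did not pass the count filter, and H6PD was not matched by symbol.

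Among 26 other induced genes 25 were tested (not ADORA3), 11 with a slope above 0 and 14 below. An unadjusted p below 0.05 was found for 2 in the positive and 2 in the negative direction, and the median slope was -0.00084. This count, 4 of 25, was near the 13.9% of all genes. FOXO3, a transcription factor of stress resistance, had a slope of 0.0081 (standard error 0.0026, FDR = 0.190 with edgeR). The adaptor of insulin signalling IRS2 had a slope of 0.014 (FDR = 0.231 with edgeR), and MERTK, a receptor for the uptake of dying cells, one of -0.027 (FDR = 0.253 with edgeR). ANXA1 and TXNIP, with the highest CPM, had slopes of 0.0052 and 0.0045, and the fourth gene past an unadjusted p of 0.05, DDIT4, had -0.017. Of 14 repressed genes, 11 were tested (not IL6, CCL2 or CSF2), 5 with a slope above 0 and 6 below. IL12B, a subunit of interleukins made by antigen-presenting cells, had a slope of -0.033 (p = 0.00929, FDR = 0.214 with edgeR), and it was the only 1 of the 11 with an unadjusted p below 0.05, again near the share of all genes. IL2, TNF and IL1B had slopes of 0.034, -0.0086 and -0.010.

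Whether the members varied together was asked over all 20 cows. Of 21 pairs, 15 had a Pearson correlation of log2 CPM between -0.3 and 0.3, 9 were positive and 12 negative, and the median was -0.074. The counts of each gene were also fitted on the log2 CPM of each member with edgeR, and 0 of the 21 pairs had an FDR below 0.05 in either direction. For 1 pair, TSC22D3 and SGK1, the unadjusted edgeR p was below 0.05. Permutation p-values, two-sided and unadjusted, were below 0.05 for 1 pair with Pearson's r and for 3 pairs with Spearman's rho. Limma voom gave 0 pairs at an FDR below 0.05 and 2 at an unadjusted p below 0.05.

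NR3C1 and its well known target FKBP5 gave r = -0.027 (permutation p = 0.909) and rho = 0.050 (permutation p = 0.834). Without the 2 cows farthest from the median of NR3C1, r was -0.18. FKBP5 and TSC22D3, both induced by the receptor, gave r = -0.23 (permutation p = 0.323) and rho = -0.059 (permutation p = 0.805), and r was 0.32 without the 2 cows farthest from the median of FKBP5 and 0.016 when only the cow of the 45 kg calf was omitted. FKBP5 and KLF9 gave r = 0.36 (permutation p = 0.121) and rho = 0.40 (permutation p = 0.0865), with r = 0.38 without the 2 farthest cows. NR3C1 and KLF9 were inverse, without passing the threshold, at r = -0.30 (permutation p = 0.195) and rho = -0.40 (permutation p = 0.0791), with r = -0.24 without the 2 farthest cows.

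**Figure D3:**
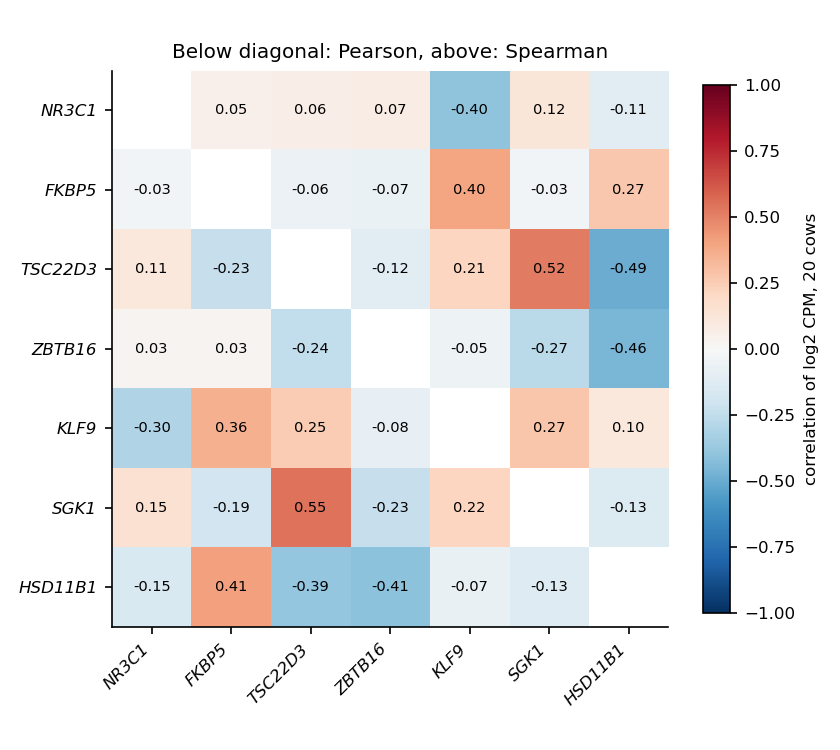
Correlation of log2 CPM between members over 20 cows, Pearson's r below the diagonal and Spearman's rho above, coloured from -1 (blue) to 1 (red). TSC22D3 and SGK1 have the highest values, 0.55 and 0.52, and 15 of 21 Pearson values lie between -0.3 and 0.3.

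TSC22D3 and SGK1 gave r = 0.55 (permutation p = 0.0125) and rho = 0.52 (permutation p = 0.0193). The edgeR slope of SGK1 was 0.77 per doubling of TSC22D3 (standard error 0.26, p = 0.00746, FDR = 0.382), and the FDR of the fit in the other direction was 0.259. The cow of the 45 kg calf had the lowest level of both genes, and that of the 54 kg calf the highest of both. Without the 2 cows farthest from the median of TSC22D3, r was 0.39. Leaving out 1 cow at a time gave r from 0.40 (permutation p = 0.0912), with the cow of the 45 kg calf left out, to 0.65, without that of the 49.5 kg calf. For rho the permutation p was also above 0.05 with the cow of the 54 kg calf left out (rho = 0.44, permutation p = 0.0582).

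The neutrophil score was related to both genes at an unadjusted permutation p below 0.05. In edgeR fits on the score the FDR was 0.0945 for SGK1 and 0.188 for TSC22D3, so neither passed. The mean z-score of the 8 neutrophil markers was related to SGK1 with r = 0.60 (permutation p = 0.00499, rho = 0.54, permutation p = 0.0157, r = 0.51 without the 2 cows farthest from the median score). For TSC22D3 it was r = 0.53 (permutation p = 0.0153, rho = 0.51, permutation p = 0.0228, r = 0.69 without the 2 farthest cows). The score was lowest in the cows of the 56 and 45 kg calves, at -1.311 and -1.302, and highest in that of the 50 kg calf, at 1.23. By gene, the slope on SGK1 had an unadjusted p below 0.05 for 7 of the 8 markers, of which 6 were positive, where 5.43% of all genes were positive and 5.73% negative at that p. On TSC22D3 it was 3 of the 8, each positive, where 4.33% of all genes were. With the score as a covariate the edgeR slope of SGK1 on TSC22D3 was 0.44 (p = 0.144, FDR = 0.798). SGK1 was also related to the total count of the library (r = 0.50, permutation p = 0.0235, rho = 0.54, permutation p = 0.0157, r = 0.46 without the 2 farthest cows), where TSC22D3 had r = 0.012 (permutation p = 0.961, rho = -0.063, permutation p = 0.792, r = 0.25 without the 2 farthest cows). SGK1 further had r = 0.60 with the platelet score (permutation p = 0.00319, rho = 0.47, permutation p = 0.0373, r = 0.38 without the 2 farthest cows) and r = 0.52 with the monocyte score (permutation p = 0.0169, rho = 0.36, permutation p = 0.117, r = 0.20 without the 2 farthest cows). TSC22D3 was inverse to the T cell score, at r = -0.51 (permutation p = 0.0222, rho = -0.48, permutation p = 0.0326, r = -0.35 without the 2 farthest cows). The part of depth, platelets, monocytes or T cells in the relation of TSC22D3 and SGK1 was not tested.

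**Figure D4:**
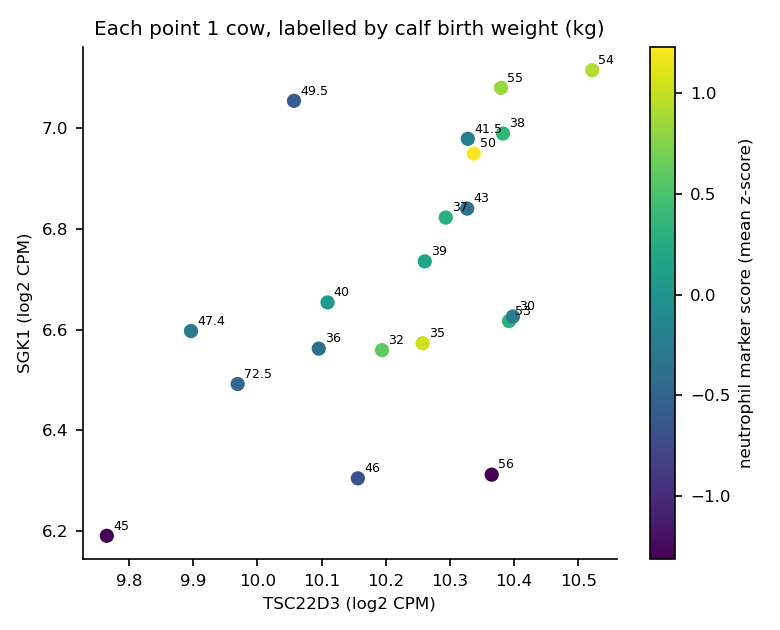
SGK1 against TSC22D3, both as log2 CPM, in 20 cows labelled by calf birth weight in kg and coloured by the neutrophil marker score (mean z-score of 8 genes). The cow of the 45 kg calf is lowest for both genes and has a score of -1.302, and that of the 54 kg calf is highest for both.

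HSD11B1 went against 2 members by rank. It gave rho = -0.49 with TSC22D3 (permutation p = 0.0279, r = -0.39, permutation p = 0.0890, r = -0.45 without the 2 farthest cows) and rho = -0.46 with ZBTB16 (permutation p = 0.0441, r = -0.41, permutation p = 0.0748, r = -0.35 without the 2 farthest cows). The edgeR FDRs of these pairs, with HSD11B1 as the fitted gene, were 0.782 and 0.917. With FKBP5, HSD11B1 had r = 0.41 (permutation p = 0.0725) and rho = 0.27 (permutation p = 0.246), and r was 0.19 without the 2 farthest cows.

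Among 56 relations of a member with a marker score or the total count, the rest concerned other cells and members. In edgeR fits on the 7 marker scores, 0 of 49 pairs of member and score had an FDR below 0.05, 11 had an unadjusted p below 0.05, and the lowest FDR was 0.0945, for SGK1 on the neutrophil score. For scale, the share of all genes with an FDR below 0.05 was 2.02% on the neutrophil score, 7.96% on the monocyte score, 1.47% on the T cell score, 2.37% on the B cell score, 0.455% on the natural killer cell score, 0.0307% on the erythroid score and 0.234% on the platelet score. The shares at an unadjusted p below 0.05 were, in the same order, 15.5%, 21.1%, 11.6%, 13.6%, 10.4%, 8.7% and 6.1%.

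ZBTB16 was related to the T cell score with r = 0.50 (permutation p = 0.0229), but rho was 0.30 (permutation p = 0.201), and r was 0.12 without the 2 farthest cows. With the natural killer cell score ZBTB16 had r = 0.48 (permutation p = 0.0341, rho = 0.33, permutation p = 0.159, r = 0.58 without the 2 farthest cows), and with the B cell score r = -0.49 (permutation p = 0.0262, rho = -0.42, permutation p = 0.0646, r = -0.39 without the 2 farthest cows). The cow of the 47.4 kg calf had both the highest ZBTB16 and the highest summed T cell markers, at 1033 CPM. FKBP5 was inversely related to the platelet score (r = -0.61, permutation p = 0.00422, rho = -0.40, permutation p = 0.0843), and r was -0.21 without the 2 farthest cows. Its relation to the erythroid score was r = -0.49 (permutation p = 0.0272, rho = -0.33, permutation p = 0.150, r = -0.64 without the 2 farthest cows). NR3C1 had its highest r with the B cell score, at 0.44 (permutation p = 0.0544, rho = 0.43, permutation p = 0.0630, r = 0.28 without the 2 farthest cows). KLF9 had r = 0.41 with the monocyte score (permutation p = 0.0774, rho = 0.49, permutation p = 0.0316, r = 0.34 without the 2 farthest cows).

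The members differed in how many other genes followed their level in the same edgeR fits over 16268 genes. On NR3C1, 1.17% of genes had an FDR below 0.05, which is 190 genes, 97 with a positive and 93 with a negative slope, and 17% had an unadjusted p below 0.05. On SGK1 these shares were 0.197%, or 32 genes, and 11.2%. On TSC22D3 they were 0.00615%, or 1 gene, and 7.95%. On FKBP5, ZBTB16, KLF9 and HSD11B1, 0% of genes had an FDR below 0.05, while 2.83%, 5.8%, 6.37% and 7.24% had an unadjusted p below 0.05. The cow of the 72.5 kg calf had the third highest NR3C1, and with it left out the count on NR3C1 was 4, and all 4 were among the 190. That on SGK1 was 20 without the same cow, 0 with the cow of the 45 kg calf left out and 0 with the neutrophil score as a covariate.

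The genes most like each member were taken as the 3 with the highest Spearman correlation over 20 cows, among genes with a mean of at least 1 CPM, and they carry no p because they were chosen as the highest. NIP7 (rho = 0.85), ETNK1 (0.85) and LOC132346103 (0.84) were nearest to NR3C1. MCUR1 (0.72), LANCL2 (0.71) and RAPGEF2 (0.70) were nearest to FKBP5. For TSC22D3 these were PDCL (0.80), TMEM230 (0.80) and POLM (0.79), and for ZBTB16 TACR2 (0.78), NFASC (0.72) and RPL31 (0.71). KLF9 was followed by NRP2 (0.82), PDIA5 (0.82) and EFNB1 (0.82). SGK1 was followed by TANK (0.84), WDFY3 (0.84) and FAM114A1 (0.81), and HSD11B1 by TYMS (0.76), ZFP64 (0.75) and NOC2L (0.74). No member was among the 3 genes nearest to another. With 3 taken from about 13300 genes, this says little of whether members vary together.

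The single gene with an FDR below 0.05 on TSC22D3 was SORL1, a sorting receptor, with a slope of 0.70 (standard error 0.096, FDR = 0.00537 with edgeR). On TSC22D3 there were 0 such genes with the neutrophil score as a covariate, and 0 when the cow of the 45 kg calf was omitted. The 4 genes that stayed on NR3C1 with the cow of the 72.5 kg calf left out were BTBD8, ERO1B, ETNK1 and LOC132343227. In all 20 cows the slope of ETNK1, an ethanolamine kinase, was 0.81 (standard error 0.13, FDR = 0.0274 with edgeR). Of the 32 genes on SGK1 the smallest p belonged to WDFY3, an adaptor of selective autophagy, with a slope of 0.81 (standard error 0.12, FDR = 0.0093 with edgeR). CXCR1, a neutrophil chemokine receptor and one of the neutrophil markers, was also among them, with a slope of 1.08 (FDR = 0.0279 with edgeR). So were the neutrophil marker CSF3R, at 0.84 (FDR = 0.0473 with edgeR), and the platelet marker TUBB1, at 1.04 (FDR = 0.0499 with edgeR). These genes, other than ETNK1 and WDFY3, and the list genes in the next paragraphs were named after their values were seen.

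Slopes of the other glucocorticoid-induced genes were mostly positive on TSC22D3 and KLF9, and mostly negative on NR3C1 and HSD11B1. Of 25 tested, 9 had a positive slope on TSC22D3 at an unadjusted p below 0.05, where 4.33% of all genes had, and 21 of 25 slopes were positive, where 49.7% of all slopes were. The median slope of the list was 0.33, against -0.0018 over all genes, and 0 of the 25 had an FDR below 0.05. The 9 were CXCR4, ZFP36, ANXA1, NFKBIA, TXNIP, IRS2, CEBPD, BCL6 and FOXO3. FOXO1 had a negative slope, -0.28 (p = 0.0234, FDR = 0.509 with edgeR), where 3.62% of all genes were negative at an unadjusted p below 0.05.

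CXCR4, the receptor that holds leukocytes in the bone marrow, had a slope of 1.08 on TSC22D3 (standard error 0.25, FDR = 0.118 with edgeR). ZFP36, which marks inflammatory mRNAs for decay, had a slope of 0.64 (standard error 0.15, FDR = 0.127 with edgeR). The slope of NFKBIA, the inhibitor of NF-kappaB, was 0.75 (standard error 0.23, FDR = 0.304 with edgeR), and that of ANXA1, a phospholipid-binding protein that limits inflammation, 0.60 (standard error 0.18, FDR = 0.262 with edgeR). MT2A, a metallothionein of a multigene family whose reads may be shared, had -1.07 (p = 0.104, FDR = 0.749 with edgeR).

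On SGK1, 16 of 25 slopes of the induced genes were positive, where 47.4% of all slopes were. At an unadjusted p below 0.05, 7 of the 25 had a positive slope, where 5.43% of all genes had. These were BCL6, CD163, CXCR4, CEBPD, ZFP36, FOXO3 and IL1R2. BCL6, a transcriptional repressor of lymphoid and myeloid cells, had a slope of 0.81 (standard error 0.15, FDR = 0.0473 with edgeR) and was the only gene of the pathway lists with an FDR below 0.05 on any member. CD163, a haemoglobin scavenger receptor of monocytes, had a slope of 0.92 (standard error 0.26, FDR = 0.141 with edgeR). On KLF9 22 of 25 slopes were positive, where 47.0% of all slopes were. At that p there were 5 of 25, CEBPD, PIK3IP1, PDK4, MERTK and IL7R, where 3.09% of all genes had a positive slope. It was 3 of 25 with the cow of the 72.5 kg calf left out.

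With the neutrophil score as a covariate, 7 of 25 induced genes had a positive slope on TSC22D3 at an unadjusted p below 0.05, where 3.78% of all genes had. On SGK1 it was 1 of 25, BCL6, where 4.37% of all genes had. With the cow of the 45 kg calf left out the counts were 7 on TSC22D3 and 5 on SGK1, where 3.49% and 5.38% of all genes had a positive slope at that p. The fits on TSC22D3 and SGK1 used the same cows, and differences between members in these counts were not tested.

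**Figure D5:**
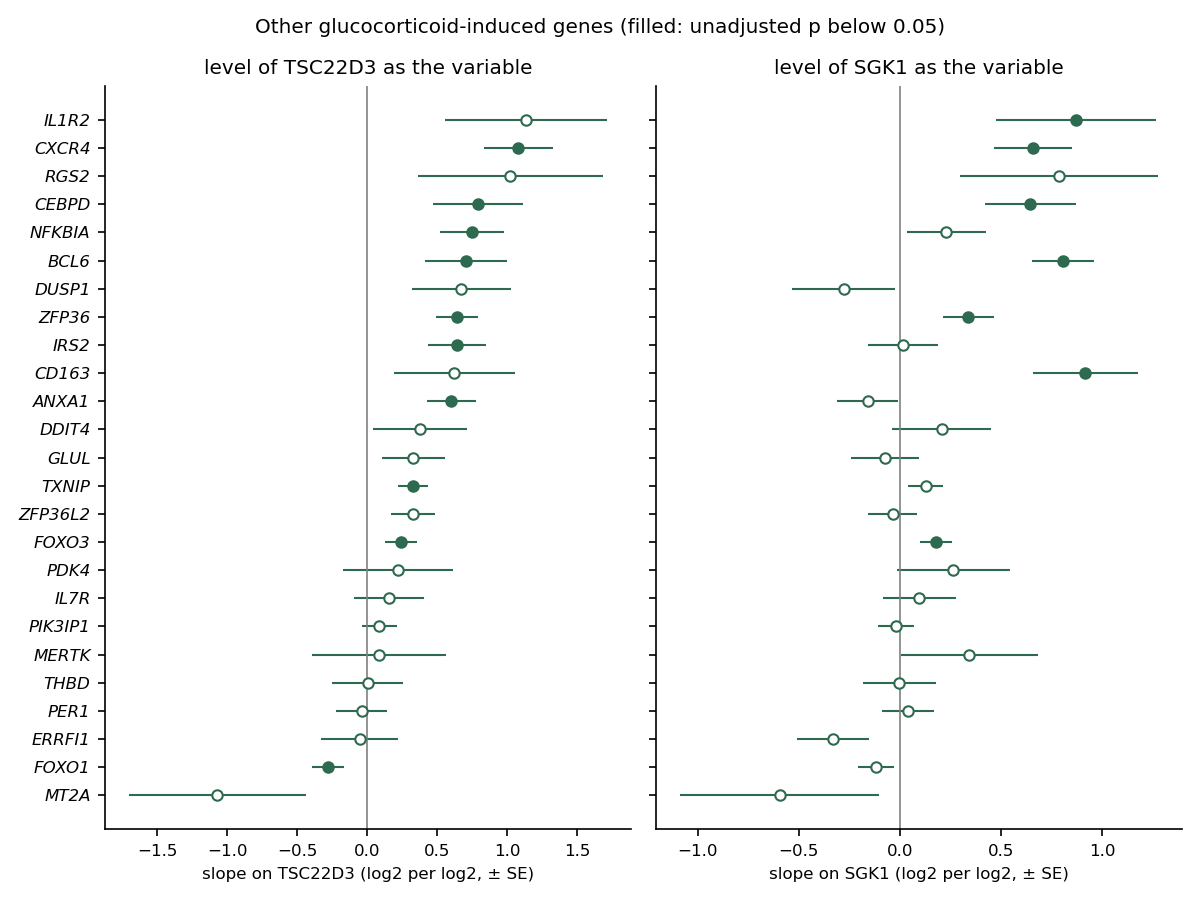
Slope of each of 25 other glucocorticoid-induced genes on the log2 CPM of TSC22D3 (left) and SGK1 (right), with standard errors in 20 cows and filled points for an unadjusted p below 0.05. On TSC22D3 21 of 25 slopes are above 0 and on SGK1 16 of 25, where 49.7% and 47.4% of all slopes are.

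The same counts at an unadjusted p below 0.05 were taken on the remaining members. On NR3C1, 1 of 25 was positive (IRS2) and 4 were negative (NFKBIA, CEBPD, MT2A and IL7R), where 8.89% of all genes were positive and 8.11% negative. It was 1 of each direction when the cow of the 72.5 kg calf was omitted. On FKBP5 there were 0, where 2.83% of all genes had such a p, and on ZBTB16 1 was positive (IL7R), where 2.34% of all genes were. On HSD11B1 1 was positive (MERTK) and 4 negative (DUSP1, IRS2, FOXO3 and ZFP36L2), where 3.36% of all genes were positive and 3.88% negative. Slopes above 0 at any p numbered 8 of 25 on NR3C1, 11 on FKBP5, 14 on ZBTB16 and 8 on HSD11B1. The shares of all slopes above 0 were, in the same order, 50.7%, 51.2%, 51.0% and 51.6%. At an unadjusted p below 0.05, 1 of 11 repressed genes was positive on each of ZBTB16 and HSD11B1, where 2.34% and 3.36% of all genes were. On KLF9 1 was negative, where 6.37% of all genes had such a p in either direction. On NR3C1 and FKBP5 there were 0, where 17% and 2.83% of all genes had such a p. Of 11 receptor chaperones, 1 had a positive slope at an unadjusted p below 0.05 on each of FKBP5, TSC22D3, SGK1 and HSD11B1. The shares of all genes were 1.21%, 4.33%, 5.43% and 3.36%. On NR3C1 1 was negative (BAG1), where 8.11% of all genes were, and on ZBTB16 and KLF9 there were 0. FKBP4, which carries the receptor towards the nucleus, was the 1 on FKBP5 (FDR = 0.9996 with edgeR) and on HSD11B1 (FDR = 0.683 with edgeR). Its slopes on TSC22D3 and SGK1 were -0.25 (FDR = 0.682 with edgeR) and -0.17 (FDR = 0.559 with edgeR). HSP90AA1 had a slope of 0.27 on TSC22D3 (standard error 0.11, FDR = 0.485 with edgeR) and of 0.22 on SGK1 (standard error 0.073, FDR = 0.220 with edgeR).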

How the data were processed

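Per the labels, reads were processed with Trimmomatic, STAR 2.7.0b and featureCounts (Subread 2.0.3), and the authors deposited raw counts per Entrez identifier, 1 library per cow, without normalization. The labels name a SMARTer Stranded kit and the methods text a TruSeq stranded mRNA kit. The strand setting of the counting and the handling of reads matching several genes are not given in the sources used here. Names came from a table of another assembly (ARS-UCD2.0), in which all 37063 identifiers were found, so no coordinates are given.

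Counts were fitted with edgeR 4.0.16 (R 4.3.3; TMM, quasi-likelihood test, Benjamini-Hochberg adjustment over all genes tested), for genes whose count reached 10 in 5 or more cows. BW was fitted in 19 cows. Member levels (centred log2 CPM, prior count of 2) and marker scores were fitted in 20 cows, leaving out the fitted gene or list. DESeq2 1.42.0 and limma 3.58.1 with voom were alternatives, along with other size factors, filters, cows, BW ranks and covariates. The induced-gene counts under these settings, and the fits with the cow of the 45 kg calf left out, were added after seeing the data. Of the tests, only the edgeR fits on BW and on the level of FKBP5 were tried on simulated counts. Of genes simulated with BW slopes of 0.03 and 0.06 log2 per kg, 55% and 92% had an FDR below 0.05. At slopes of 2 and 4 on FKBP5 the shares were 68% and 91%. Smaller slopes were not simulated. The changed genes were drawn from those with a mean of at least 1 CPM, so the shares do not cover HSD11B1, at a mean of 0.653. Permutation tests were two-sided with 100000 resamples, and intervals are 95%. Members and lists were chosen with earlier results of these data known. Genes named were the members, in each pathway list the 3 with the smallest p on BW and the 2 with the highest CPM, the 3 most like each member, and the markers of highest and lowest CPM. A gene named by this rule is not reported here. The p-values take the cow as the unit and set each slope or correlation against the spread between cows.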

Additional observations from a re-analysis of the deposited data

How the results depend on the processing

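No member had an FDR below 0.05 on BW in any of the alternatives, and no pair of members had one. The following slopes on BW changed sign, each with an unadjusted p above 0.05. In all 20 cows they were -0.001035 for FKBP5, -0.0017 for TSC22D3 and -0.0021 for KLF9. With 1 cow left out they ran from -9.8e-05 to 0.0055 for TSC22D3, from -0.0017 to 0.0057 for KLF9 and from -0.00084 to 0.0053 for ZBTB16. Of the other slopes of members on BW, 189 kept their direction. DESeq2 called 1 chaperone (PPID) and 1 coregulator (NCOA2) where edgeR called 0. Over all genes DESeq2 called 1.22% of those with an adjusted p, and edgeR 0%. Between members, slopes that changed sign were FKBP5 on NR3C1 (0.052) and KLF9 on ZBTB16 (0.031) with the cow of the 72.5 kg calf left out, and ZBTB16 on NR3C1 (0.012) and HSD11B1 on KLF9 (0.050) with the neutrophil score. The causes were not tested.

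The number of genes with an FDR below 0.05 on NR3C1 was 190, against 4 with the cow of the 72.5 kg calf left out, 343 with limma voom and 561 when any gene with a count was kept. With that filter it was 206 on SGK1 (32), 62 on TSC22D3 (1), 29 on FKBP5 (0), 81 on ZBTB16 (0), 33 on KLF9 (0) and 8 on HSD11B1 (0). The induced genes with a positive slope at an unadjusted p below 0.05 numbered 1 on SGK1 with the neutrophil score and 3 on KLF9 with the cow of the 72.5 kg calf left out. HSD11B1 could not be fitted where at least 10 counts were required in every cow. No paired analysis was possible because all cows form 1 group. HSD11B1 rests on 7 to 41 counts per cow, with a counting coefficient of variation of 20.9% against 42.5% observed.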
